A study of Mus musculus with 6 samples.

Results

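mt-Rnr2 is the mitochondrial gene of the large ribosomal RNA, annotated at chrM 1094 to 2675 on the forward strand (GRCm38, ENSMUSG00000064339.1), a single exon of 1582 nt with no UTR. It was chosen by name and position, as 1 of the 37 genes of the mitochondrial chromosome, and its 1582 positions were read from the forward-strand base counts of 6 small RNA libraries. The RNA was that of pancreatic islets, which hold the cells that secrete insulin and glucagon, from mice with the genotype Mrpp3WT (wild type, 3 libraries) or Mrpp3N434S (mutant, 3 libraries), and all 6 had eaten a high-fat diet for 14 weeks. The design text speaks of pancreatic RNA and of 3 mice of each genotype. The sources used here give no age, strain background or breeding scheme. The counts cover the mitochondrial chromosome only, so neither the Mrpp3 genotype nor islet identity could be checked against nuclear genes.

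The large rRNA forms the core of the large subunit of the mitochondrial ribosome, where peptide bonds are made. It is transcribed with the small rRNA mt-Rnr1 on one long heavy-strand precursor, in which tRNAs separate most of the other genes. The valine tRNA mt-Tv lies directly before mt-Rnr2 and the leucine tRNA mt-Tl1 directly after it. The nuclease ELAC2 cuts the 3′ side of mt-Tv, which makes the 5′ end of the large rRNA. Mitochondrial RNase P, whose nuclease subunit is MRPP3, cuts the 5′ side of mt-Tl1, which makes its 3′ end. Small RNA libraries join adapters to short RNA, so the reads over mt-Rnr2 are fragments of the rRNA and not the whole molecule.

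The 2 ends of the gene carried the sharpest edges of the profile, and their sequences are shown for that reason, 5′ to 3′ on the forward strand as the deposited files give the reference base. In the first line the capitals mark chrM:1094-1191, after the last 10 bases of mt-Tv. This is the unbroken stretch at the 5′ end with a total depth above 6000 in at least 1 library, and not a mapped fragment. In the second line the capitals mark chrM:2676-2682, the first bases of mt-Tl1 up to which rRNA reads ran on, after the last 30 bases of mt-Rnr2.
5′ end, chrM:1084-1203: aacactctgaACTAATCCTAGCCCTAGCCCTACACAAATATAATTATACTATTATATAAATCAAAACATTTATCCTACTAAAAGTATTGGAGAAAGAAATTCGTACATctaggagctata
3′ end, chrM:2646-2690: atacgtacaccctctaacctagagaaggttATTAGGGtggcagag
All 1582 reference bases of the files matched the GENCODE transcript of mt-Rnr2, which has a GC content of 35.4%.

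Where 3 values are given for a genotype, they are those of replicates 1, 2 and 3. Summed depth over the whole mitochondrial chromosome ran from 3156761 bases in the shallowest wild-type library to 10923311 in mutant replicate 1, and every mutant library was deeper than every wild-type one. The part of depth in the differences between genotypes was not tested. Forward-strand depth over mt-Rnr2 was 2105547, 1857601 and 1658374 bases in the wild type, compared with 6071800, 3046843 and 3331872 in the mutant. The reverse strand held only 35 to 314 bases over the gene in any library, so forward depth there was nearly all of the depth. The lowest position of the gene had a depth of 45 to 278, and no position was without reads.

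Fragments of the large rRNA rose in the mutant relative to other mitochondrial RNA outside the positions of very high depth. The files never exceed a total depth of 8000, and 295 positions of mt-Rnr2 had a total depth above 6000 in at least 1 library (near-limit positions). They were left out of every library, which kept 1287 positions. Normalized depth is the deposited depth after edgeR's TMM scaling of the libraries on the mitochondrial genes. Normalized mean depth there was 810, 931 and 864 in the wild type, compared with 1874, 1475 and 1281 in the mutant. Each mutant library lay above each wild-type library. The means were 869 ± 60.4 and 1543 ± 302 (SD, n = 3), a 1.78-fold increase (log2 0.83, SE 0.26, 95% interval 0.31 to 1.35, edgeR quasi-likelihood adjusted p = 0.0239). By this test 4 of 34 genes changed (11.8%), 3 of them higher (8.82%) and 1 lower (2.94%). The median log2 change over all 34 genes was -0.03. Scaled to library totals the log2 change of mt-Rnr2 was 0.42 (edgeR adjusted p = 0.0491), with 2 genes higher and 10 lower, and scaled to the summed tRNA genes it was 1.22 (adjusted p = 0.00151), with 12 higher and 0 lower. In bulk RNA, a change in the number of cells of a type and a change in RNA per cell cannot be told apart.

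The call was lost without wild-type replicate 1 (edgeR adjusted p = 0.185), without wild-type replicate 3 (adjusted p = 0.111) and without mutant replicate 1 (log2 0.67, adjusted p = 0.0759). The direction was positive in each of these fits.

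With all positions kept, normalized mean depth was 1296, 1654 and 1596 in the wild type, compared with 2396, 2213 and 1856 in the mutant. The groups again did not overlap, but the difference was smaller (1.42-fold, log2 0.51, SE 0.24) and did not pass (edgeR adjusted p = 0.116; background 5.88% of 34 genes, 2.94% higher and 2.94% lower). As a share of all mitochondrial base depth, mt-Rnr2 took 51.6% ± 2.67 in the wild type, compared with 55.9% ± 0.313 in the mutant (SD, n = 3). That difference of 4.29 points gave the smallest p an exact two-sided permutation test allows with 3 against 3 libraries (p = 0.1, adjusted over 3 such tests 0.3). With the near-limit positions left out of gene and total, the shares were 35.8% ± 1.35 and 46.7% ± 1.95 (SD, n = 3).

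**Figure D1:**
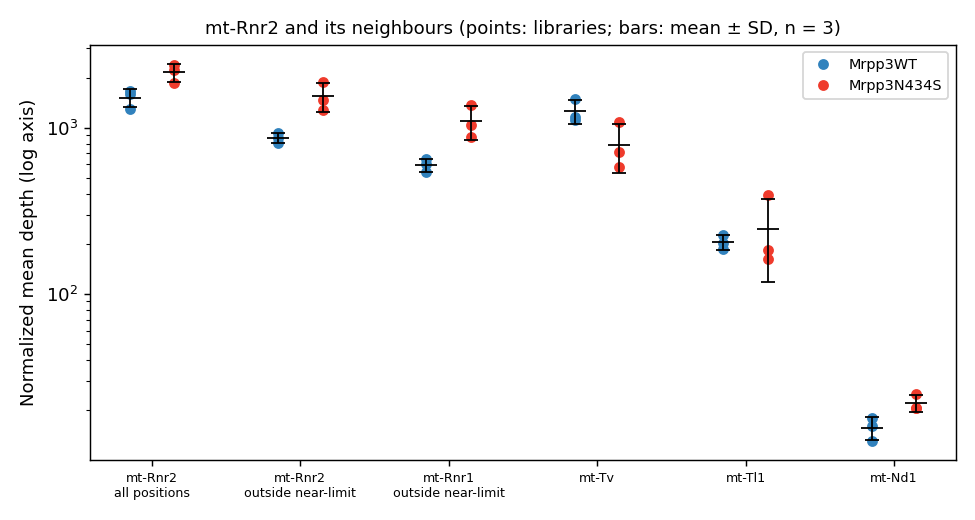
Normalized mean depth (log axis) of mt-Rnr2 over all positions and outside near-limit positions, and of its neighbours mt-Rnr1, mt-Tv, mt-Tl1 and mt-Nd1, in each library (points) with mean ± SD (n = 3) per genotype. The mutant points of mt-Rnr2 lie above the wild-type points in both versions, with means of 1543 against 869 outside near-limit positions.

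Of the other genes at the promoter-proximal end of the precursor, the small rRNA rose as well. Of mt-Tf, mt-Rnr1, mt-Tv, mt-Tl1 and mt-Nd1, 4 had enough depth to be tested and 1 passed. mt-Rnr1, which encodes the small rRNA, rose 1.84-fold (log2 0.88, SE 0.25, edgeR adjusted p = 0.0171). mt-Tv, which lies between the 2 rRNAs, had a log2 difference of -0.67 (SE 0.26, adjusted p = 0.0571). mt-Tl1 had 0.26 (SE 0.27, adjusted p = 0.505), and mt-Nd1, which encodes a subunit of respiratory complex I, had 0.55 (SE 0.21, adjusted p = 0.114). The ratio of mt-Rnr2 to mt-Rnr1 depth outside near-limit positions was 1.51, 1.44 and 1.44 in the wild type, compared with 1.36, 1.42 and 1.47 in the mutant. The genotypes overlapped (difference of -0.05 on the log2 scale, exact two-sided permutation p = 0.4, adjusted 0.6).

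Across the 6 libraries the level of mt-Rnr2 outside near-limit positions followed mt-Rnr1 most closely of the 33 other genes tested (Pearson r = 0.998, Spearman rho = 1). Next were mt-Nd4, another complex I gene (r = 0.969, rho = 0.943), and mt-Co1, which encodes the catalytic subunit of cytochrome oxidase (r = 0.959, rho = 0.943). These describe 6 libraries that share 1 scaling and differ in genotype and depth.

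Fragments covered mt-Rnr2 unevenly, with similar profiles in the 6 libraries. Outside near-limit positions, the correlation of log2 depth across positions was 0.890 to 0.991 for the 6 pairs of libraries of one genotype and 0.839 to 0.958 for the 9 pairs between genotypes. Positions in one library share reads and are not independent. Of the 32 segments of 50 nt, counted from the 5′ end with a last one of 32 nt, the highest by the mean over all 6 libraries were chrM 1144 to 1193, 1094 to 1143 and 1294 to 1343. This ranking keeps all positions. These 3 segments keep 2, 0 and 0 positions outside near-limit ones, so their order is not read as one of levels. In 1294 to 1343 the deposited mean depth was 7473 in mutant replicate 1. The lowest were 1944 to 1993, 1444 to 1493 and 1594 to 1643.

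The 3 lowest segments show how deep the troughs were. In the segment 1944 to 1993 the normalized depth was 234, 220 and 245 in the wild type, compared with 719, 481 and 383 in the mutant. In the segment 1444 to 1493 it was 209, 229 and 209 against 608, 504 and 527, and in the segment 1594 to 1643 it was 267, 317 and 303 against 705, 534 and 473. No mutant value fell into the wild-type range in any of them. Their sequences are shown beside that of 1294 to 1343, the third highest by that mean, to show their base composition, with a GC content of 48%, 24% and 42% in the troughs and 34% in the peak. In the wild type alone the segment 1294 to 1343, at 1814, 2227 and 1792, was below the segment 1194 to 1243, at 2280, 2625 and 2428.
Trough, chrM:1944-1993: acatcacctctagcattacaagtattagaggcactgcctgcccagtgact
Trough, chrM:1444-1493: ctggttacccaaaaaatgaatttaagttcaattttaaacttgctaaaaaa
Trough, chrM:1594-1643: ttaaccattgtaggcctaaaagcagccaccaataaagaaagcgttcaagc
Peak, chrM:1294-1343: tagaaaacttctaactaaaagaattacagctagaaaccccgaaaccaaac

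**Figure D2:**
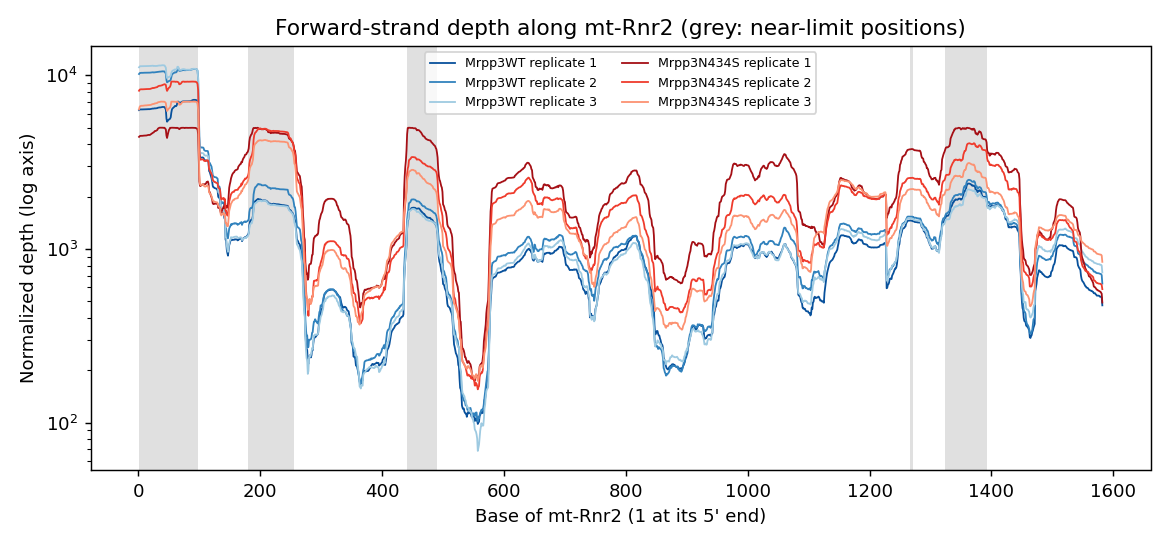
Normalized forward-strand depth (log axis) at each base of mt-Rnr2, counted from its 5′ end, in the 6 libraries, with near-limit positions shaded. The profiles of the 6 libraries are similar, and the mutant lines lie above the wild-type lines over most of the gene but not in the first bases.

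The 5′ end stood apart from the rest of the gene. From mt-Tv into mt-Rnr2, depth rose between chrM 1093 and 1094 from 1548, 841 and 742 to 6490, 7212 and 7292 in the wild type, and from 945, 949 and 849 to 7080, 7083 and 7214 in the mutant. This was the largest rise between adjacent positions, 7.43-fold on average in the deposited depth, which is near its limit at 1094, so the fold does not measure the rise in RNA. The edge lay on the annotated first base in all 6 libraries.

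High depth then continued to position 1191, a stretch of 98 nt. In it the mean depth was 6797, 7380 and 7181 in the wild type, compared with 7727, 7632 and 7793 in the mutant. Within the stretch, depth dipped at position 1140, to 5563 from 6542 at 1138 in wild-type replicate 1 and to 6979 from 7812 in mutant replicate 1, and rose again by 1147. At its end, depth fell within 4 bases, from 1190 to 1194, to between 34.2% and 47.9% of a depth that was itself near the limit.

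Depth in this stretch was not read as a level. The depth at the last base of mt-Tv and the first base of mt-Rnr2 summed to 8038, 8053 and 8034 in the wild type, compared with 8025, 8032 and 8063 in the mutant, although the libraries differed more than 3-fold in total depth. Over the whole gene, forward depth passed 7900 at 95, 38 and 50 positions in the mutant and at 0 positions in each wild-type library. The stretch took 31.6%, 38.9% and 42.4% of the mt-Rnr2 depth in the wild type, compared with 12.5%, 24.5% and 22.9% in the mutant. The part of a depth limit in that difference was not tested, and no test of the stretch was made. The other 197 near-limit positions (1274 to 1348, 1534 to 1582, 2360 to 2364 and 2418 to 2485) passed 6000 in mutant replicate 1 only.

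**Figure D3:**
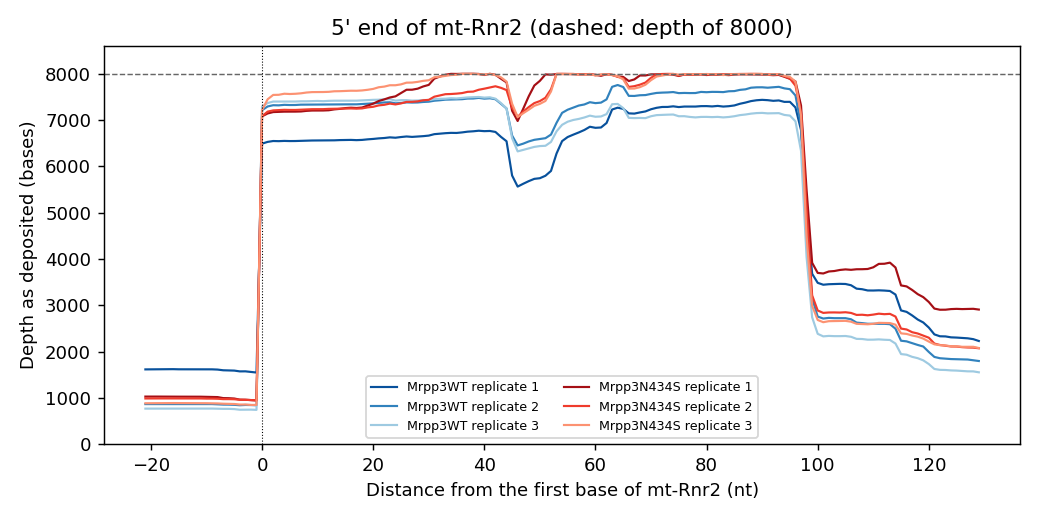
Deposited depth from 21 nt before to 129 nt after the first base of mt-Rnr2 in the 6 libraries, with a dashed line at 8000. Depth rises at the first base to between 6490 and 7292, the mutant lines flatten just under the dashed line, and all lines fall together at the end of the 98 nt stretch.

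Segment by segment, the increase in the mutant ran through most of mt-Rnr2. Of its 32 segments, 28 kept at least 10 positions outside the near-limit ones and were tested together with those of all other genes, 252 segments in all. Of the 28, 24 rose and 0 fell (edgeR quasi-likelihood, adjusted p 8.15e-05 to 0.0325), by 1.60-fold to 2.62-fold. The background was 33.7% of all 252 segments higher and 0.794% lower, and 27.2% higher and 0.893% lower among the 224 segments of other genes. The median log2 change was 0.94 in mt-Rnr2, 0.97 over the 18 segments of mt-Rnr1, of which 15 rose, and 0.56 over the segments of all genes but mt-Rnr2. In 26 of the 28 segments all mutant libraries lay above all wild-type libraries. The share of such segments in other genes is not given here, so this count has no background. The log2 change was positive in 27 of the 28 segments and in 190 of the 224 segments of other genes. Neighbouring segments share reads, so these counts are not independent.

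The counts depended on the scaling. Scaled to library totals, 17 of the 28 segments rose and 1 fell, with a median of 0.53, and 12 rose and 14 fell among the other 224 segments. Scaled to the summed tRNA genes, 26 rose and 0 fell, with a median of 1.33, and 160 of the other 224 rose. The median of all genes was -0.44 and 0.37 in these scalings.

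The largest rise was in chrM 1494 to 1543. Over its 40 positions outside near-limit ones, its normalized depth was 391, 467 and 417 in the wild type, compared with 1233, 970 and 1139 in the mutant. That is 2.62-fold (log2 1.39, SE 0.27, edgeR adjusted p = 8.15e-05), with the groups far apart. Next came the trough at 1444 to 1493 (2.53-fold, log2 1.34, SE 0.29, adjusted p = 0.000313), the segment 1694 to 1743 (2.38-fold, log2 1.25, SE 0.25, adjusted p = 8.15e-05), 1644 to 1693 (2.38-fold) and 1394 to 1443 (2.38-fold). The 5 others of the 10 largest, 1944 to 1993, 1344 to 1393, 2094 to 2143, 1994 to 2043 and 2144 to 2193, rose 2.07-fold to 2.27-fold.

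The sequences of the first pair are contiguous, the trough shown above being followed directly by the segment of the largest rise.
Largest rise, chrM:1494-1543: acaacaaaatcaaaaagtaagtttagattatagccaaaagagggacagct

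By position, the 9 tested segments of 1244 to 1743 all rose, by 1.93-fold to 2.62-fold, and the 14 of 1744 to 2443 all rose, by 1.60-fold to 2.27-fold. Of the last 4 (2494 to 2675) 1 rose. These borders were chosen after the values were seen. The last 4 had log2 changes of 0.68 (2494 to 2543), 0.57, 0.42 and 0.09 (2644 to 2675), with adjusted p = 0.0182, 0.0823, 0.175 and 0.772 by edgeR. In the last segment the normalized depth was 566, 759 and 851 in the wild type, compared with 654, 685 and 982 in the mutant, and the genotypes overlapped.

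The segment directly after the 5′ stretch did not pass. In chrM 1194 to 1243 the normalized depth was 2280, 2625 and 2428 in the wild type, compared with 2001, 2503 and 1906 in the mutant. The genotypes overlapped (log2 -0.19, SE 0.24, edgeR adjusted p = 0.492). The value was -0.58 scaled to library totals, where it passed as lower (adjusted p = 0.012), and 0.19 scaled to tRNA.
Segment after the 5′ stretch, chrM:1194-1243: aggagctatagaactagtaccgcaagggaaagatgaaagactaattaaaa

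Setting each segment against the rest of its own gene removes the scaling and asks whether the profile itself differed. For chrM 1194 to 1243 that ratio was 3.04, 3.04 and 3.03 in the wild type, compared with 1.07, 1.75 and 1.52 in the mutant. It fell 2.15-fold (log2 -1.10, SE 0.16, edgeR adjusted p = 0.0106) and was the 1 segment of 28 that passed. The background was 0.427% of 234 segments, which is this segment alone. The call was lost without wild-type replicate 1 (adjusted p = 0.158) and without wild-type replicate 3 (adjusted p = 0.0938), with the log2 value at -1.10 in both.

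This segment touches the near-limit stretch, and the part of that in its value was not tested. With 50 nt on either side of all near-limit positions also left out, an alternative added after the data were seen, 20 segments remained testable. The segment 1194 to 1243 is itself among those left out, so this alternative gives no value for it. Of the 20, 18 rose and 0 fell, and by edgeR 0 passed relative to the rest of the gene (5 at an unadjusted p under 0.05). Among 220 segments of other genes in this setting, 69 rose and 3 fell in depth.

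Of the other 27 segments 0 passed relative to the rest by edgeR. DESeq2 called 4 of them as higher, 1444 to 1493, 1494 to 1543, 1644 to 1693 and 1694 to 1743 (adjusted p = 0.021 to 0.0247). For these 4 edgeR gave adjusted p = 0.0979 to 0.106. The adjusted p-values are not like for like, as the default filter of DESeq2 left fewer than the 234 segments to adjust over. Unadjusted p was 0.00113 to 0.00198 by DESeq2 and 0.00202 to 0.00316 by edgeR. Over all genes DESeq2 called 6 of the 234 segments fitted relative to the rest of their gene, 5 of them in mt-Rnr2. The 9 segments of 1244 to 1743 had positive values (0.12 to 0.58 on the log2 scale) and the 4 of 2494 to 2675 negative ones (-0.74 to -0.18). The lowest of these, 2644 to 2675, had ratios of 0.694, 0.812 and 0.985 in the wild type, compared with 0.343, 0.458 and 0.762 in the mutant (log2 -0.74, SE 0.26, edgeR adjusted p = 0.2). Without mutant replicate 3 it was -1.05 and passed (adjusted p = 0.0235).

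**Figure D4:**
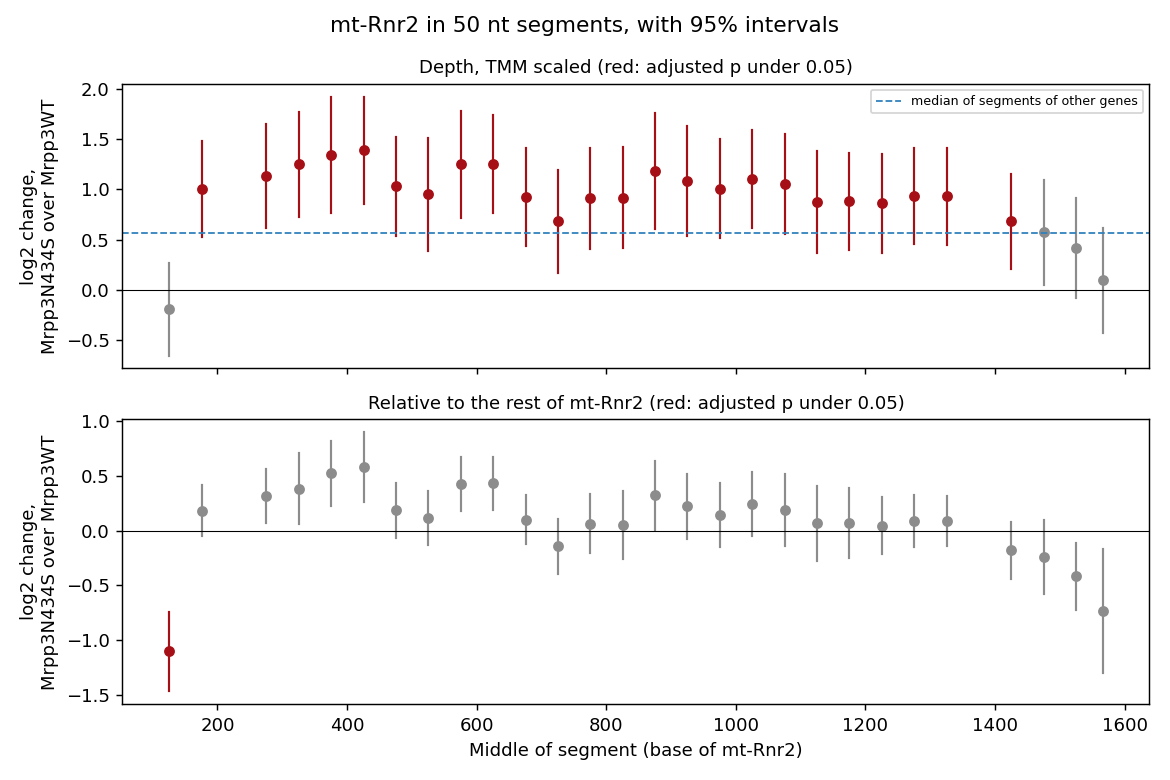
Log2 change of mutant over wild type with 95% intervals for the 28 tested segments of mt-Rnr2, for scaled depth (top, dashed line at the median of segments of other genes, 0.56) and relative to the rest of mt-Rnr2 (bottom). Red points passed at an adjusted p of 0.05; 24 do in the top panel, and in the bottom panel only the segment after the 5′ stretch does, at -1.10.

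Inside the gene, depth changed in few abrupt steps. Of 1581 steps between adjacent positions, 96.1% changed the depth by less than 10% on average over the libraries. After the 5′ edge, the largest rises were at 2565, 1529 and 1669, by 1.54-fold, 1.47-fold and 1.39-fold on average, and the largest falls inside the gene followed 2320, 1192 and 1191, by 1.62-fold, 1.46-fold and 1.45-fold. At 2320 depth fell from 1045, 827 and 765 to 611, 508 and 462 in the wild type, and from 3222, 1785 and 2234 to 2410, 1073 and 1266 in the mutant. The fall was smallest in mutant replicate 1, and the genotypes overlapped in the size of every one of these steps. Rises are places where many fragments begin and falls where many end, so 15 bases on either side are shown. Capitals mark the first 3 bases after a rise or the last 3 before a fall. The fall after 1191 directly precedes that after 1192 and is not shown apart.
Rise at chrM:2550-2579: tacgatttctcccagTACgaaaggacaaga
Rise at chrM:1514-1543: gtttagattatagccAAAagagggacagct
Rise at chrM:1654-1683: atttcaattaattccATAatttacaccaac
Fall at chrM:2306-2335: agtcaaagtaaaATCaacatatcttattga
Fall at chrM:1178-1207: agaaattcgtacATCtaggagctatagaac

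At the 3′ end the fall lay on the border with mt-Tl1 in both genotypes. Depth at chrM 2664, before the fall, was 564, 518 and 543 in the wild type, compared with 953, 562 and 1084 in the mutant. Of this depth, 87.1% ± 1.15 was still present at 2675, the last annotated base, in the wild type, compared with 87.1% ± 4.17 in the mutant (SD, n = 3). At 2676, the first base of mt-Tl1, 44.7% ± 0.644 and 48.6% ± 6.42 was left, and at 2677 18.1% ± 0.924 and 18.6% ± 0.255. The fall from 2675 to 2676, 1.87-fold on average, was the largest of the steps that start inside the gene. The step after it, inside mt-Tl1, was larger in fold in every library, from 252, 228 and 246 at 2676 to 107, 94 and 93 at 2677 in the wild type, and from 407, 268 and 601 to 178, 106 and 199 in the mutant. Mutant replicate 3 kept 55.4% at 2676, against 42.7% to 47.7% in the other 5 libraries.

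A smaller set of reads ended 6 to 7 bases into mt-Tl1. At 2681, 15.7% ± 2.34 of the depth at 2664 was present in the wild type, compared with 15% ± 0.56 in the mutant, and at 2683 1.52% ± 0.844 and 0.958% ± 0.172 (SD, n = 3). The genotypes overlapped at each of these positions. From 2676 to 2683, 29 of 5833 bases read over all libraries differed from the reference (0.497%). Only aligned bases are counted, so read ends that an aligner left out are not seen. The positions for this description were chosen after the profile was seen, and no test was made on them.

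The depth of the last 10 bases of mt-Rnr2 relative to the mean depth of mt-Tl1 gave the test of this border. The ratio was 2.85, 3.53 and 3.57 in the wild type, compared with 3.49, 3.43 and 2.36 in the mutant. The genotypes overlapped (log2 -0.12, SE 0.22, 95% interval -0.60 to 0.36, edgeR adjusted p = 0.999). Of 11 tRNA leaders tested in this way 0 passed (0%), with 0 at an unadjusted p under 0.05, and DESeq2 called 0 with 1 at an unadjusted p under 0.05. Without mutant replicate 3 the value was 0.07. The ratio counts reads on either side of the border and not reads across it, so it does not measure cutting.

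**Figure D5:**
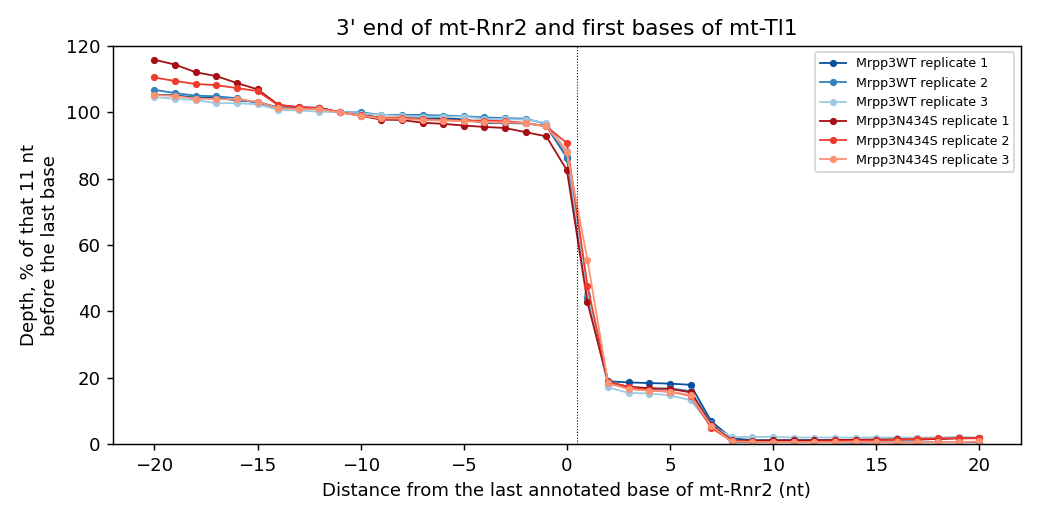
Depth around the border of mt-Rnr2 and mt-Tl1, in percent of the depth 11 nt before the last annotated base, in the 6 libraries. All lines fall at the border to between 42.7% and 55.4% at the first base of mt-Tl1, stay near 15% for several bases and are at 2.21% or less by the eighth base.

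No base of mt-Rnr2 was misread often. Modified bases can be misread by reverse transcriptase, and mismatch, the percentage of the bases read at a position that differ from the reference, measures that together with sequencing error. Averaged over the libraries, the median mismatch of the 1582 positions was 0.262%, and 1425 positions (90.1%) were below 0.5%. Only 2 positions averaged 1% or more and 0 averaged 5% or more.

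Both of these positions were tested together with all such sites of the chromosome, 69 in all. The substitutions are written with the reference base, the base of mt-Rnr2 counted from 1 at its 5′ end, and the base read most often in its place. In the sequences the site is in capitals.
G462A, chrM:1543-1567: tcttctggaacgGaaaaaaccttta
T866C, chrM:1947-1971: tcacctctagcaTtacaagtattag
At G462A (chrM 1555, depth 1057 to 7622) the mismatch was 1.04%, 0.840% and 1.14% in the wild type, compared with 0.905%, 0.816% and 1.42% in the mutant. A in place of G made up 93.8% of the mismatched bases there, and the genotypes overlapped (edgeR adjusted p = 0.99).

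At T866C (chrM 1959) the depth was low, 132 to 216 in the wild type, compared with 388 to 1063 in the mutant. Mismatch was 2.27% and 3.52% in wild-type replicates 2 and 3, from 3 and 5 mismatched bases, with exact (Clopper-Pearson) 95% intervals of 0.471% to 6.50% and 1.15% to 8.03%. Wild-type replicate 1 had 0 of 216, which allows up to 1.39% by the limit of 3 counts and up to 1.69% by the exact interval, and the mutant libraries had 0.282%, 0.258% and 0.503%. The difference did not pass (log2 odds -2.34, SE 0.93, edgeR adjusted p = 0.407). By edgeR 0 of the 2 sites and 0 of all 69 (0%) passed, with 1 and 3 at an unadjusted p under 0.05, and DESeq2 gave the same 4 counts. Without wild-type replicate 1, T866C passed (log2 odds -3.14, edgeR adjusted p = 0.0215). Intervals and limits cover counting error only.

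The next 6 positions by mismatch averaged 0.867% to 0.978%, and 5 of them were adenosines (A521G, A536G, A898G, A585G and A264G). G was the commonest misread base in each, but its share ran from 39.8% of the mismatched bases at A264G to 90% at A536G. At A264G, G was read 37 times and C 35 times. The other, C96G at chrM 1189, lies 2 bases before the last base of the 5′ stretch. It had 1.0%, 1.2% and 1.3% in the wild type, compared with 0.913%, 0.621% and 0.290% in the mutant, at a near-limit depth of 7096 to 7930. Every mutant library was lower there. C96G was below the 1% needed for the test and passed when that minimum was lowered to 0.5% (log2 odds -0.96, SE 0.20, edgeR adjusted p = 0.00117). It was the 1 that passed of 157 sites of mt-Rnr2 tested at that minimum. The share that passed among sites of other genes is not given here, so this call has no background. At A585G (chrM 1678) every mutant library was higher, with 0.703%, 0.664% and 0.847% in the wild type, compared with 0.913%, 0.932% and 1.2% in the mutant. The difference at A585G did not pass at the 0.5% minimum.

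Mean mismatch over the 1579 positions whose depth reached 50 in each library was 0.277%, 0.282% and 0.299% in the wild type, compared with 0.274%, 0.280% and 0.303% in the mutant (exact two-sided permutation p = 1, adjusted 1). By reference base it was highest at A, with 0.388% ± 0.00301 in the wild type, compared with 0.392% ± 0.0174 in the mutant (SD, n = 3; 603 positions). At T it was 0.291% ± 0.043 and 0.282% ± 0.015, at C 0.186% ± 0.0115 and 0.186% ± 0.0103, and at G 0.156% ± 0.00475 and 0.158% ± 0.0164. The order of the 4 bases was the same in all 6 libraries, and within each base the genotypes overlapped.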

How the data were processed

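Small RNA libraries (Illumina Tru-Seq Small RNA, per the labels' protocols) came from islets of 3 Mrpp3WT and 3 Mrpp3N434S mice. The submitters' processing notes name Trim Galore, cutadapt, FastQC, STAR and GRCm38.p6, with no versions or order. Which program counted the bases, whether it limited depth, and how reads from nuclear copies were handled is not given in the sources used here. Values are deposited as counts of each base on each strand at each chrM position, not scaled, per the file headers; unlisted positions were taken as 0. A table of tRNA position 9 counts with 16 per-sample columns that match no label was not used.

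Genes came from GENCODE M21 (GRCm38). Mean depth per gene or segment, rounded, was tested with edgeR 4.0.16 (R 4.3.3), with TMM factors from the genes and a minimum mean depth of 10. Ratios (segment to rest of gene, leader to tRNA, mismatched to reference bases) were tested in the same tool with an effect for each library. Mismatch sites needed a mean of 1% and a depth of 50 in every library. Adjusted p-values are Benjamini-Hochberg over all mitochondrial features tested, with a threshold of 0.05. Those of DESeq2 are over the features left by its default filter. Alternatives included DESeq2 1.42.0, other scalings, other segment lengths and leaving out each library. Every pair of libraries differed by more than counting noise (chi-square per degree of freedom of 3.24 or more). The labels do not say that libraries of a genotype share a batch or litter. In simulated data with the real depths, 61.1% of the changed segments were recovered at a log2 change of 1 and 96.9% at 2 (252 segments), 46.4% and 92.9% relative to the rest of the gene (234 segments), and 22.2% and 41.9% of mismatch sites (69 sites).

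The gene, the lists and the tests were chosen with earlier results of these data known. Named were the 10 segments of largest change past the threshold, the 3 highest and 3 lowest segments, the 8 sites of highest mismatch, the 4 largest rises and falls in depth and the 3 genes most like mt-Rnr2.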

Additional observations from a re-analysis of the deposited data

How the results depend on the processing

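For mt-Rnr2 depth outside near-limit positions the log2 change stayed positive under every alternative run. It lost its call with the replicate number as a block (0.81, edgeR adjusted p = 0.0781), leaving out a library moved it from 0.67 to 0.95, and it was 0.42 scaled to library totals and 1.22 scaled to tRNA. The shared numbers give no evidence of pairs: same-numbered libraries correlated at -0.03, -0.25 and 0.23 in their deviations from the group means, and the block left 22 of 28 segments called for depth and 1 relative to the rest. Over all positions the log2 change passed scaled to tRNA (0.89) and with no filter (0.61), and ranged from 0.37 to 0.61 when a library was left out. The count of changed segments became 46 of 52 with 25 nt segments and 13 of 15 with 100 nt segments, as the number of segments itself changes. It was 18 to 25 of 28 without one library. The share among segments of other genes is not given for these settings or for the block. These counts therefore have no background and do not show whether mt-Rnr2 stood apart. The count relative to the rest of the gene was 5 by DESeq2 after its default filter, 0 with 25 nt segments and 0 to 6 without one library. The cause was not tested. It was 0 with 50 nt beside near-limit positions left out, where the 1 called segment could no longer be tested. Changed mismatch sites numbered 1 of 157 at a minimum of 0.5% and 0 to 1 of 2 without one library. At a minimum of 5% no site of mt-Rnr2 could be tested. The 3′ end ratio ranged from -0.23 to 0.0737, reversing at 0.0737 without mutant replicate 3. The difference in mean mismatch, near 0 points, reversed to 0.015 as a median and ranged from -0.00903 to 0.00591 without one library, with positive values of 0.00591, 0.00506 and 0.00249 without wild-type replicate 3, mutant replicate 1 and mutant replicate 2. The share of mitochondrial depth differed by 2.79 to 5.32 points, and the log2 ratio to mt-Rnr1 by -0.07 to -0.02. With near-limit positions kept that ratio differed by -0.37. The first 98 bases are near-limit positions, and depth there was not read as a level. Mutant replicate 1 also reached 7986, 7994 and 7987 within 1274 to 1348, 1534 to 1582 and 2418 to 2485. Whether the counting itself limited depth was not tested. The number of libraries, 3 a genotype, limits all tests.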

Other observations

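Across the 32 segments of mt-Rnr2, GC content and log2 mean depth were nearly unrelated (Pearson r = -0.20, Spearman rho = -0.15), and across the 28 tested segments GC content and log2 change likewise (r = -0.09, rho = -0.13). The log2 change was lower toward the 3′ end of the gene (rho = -0.53 with position, r = -0.34; without the segment 1194 to 1243, rho = -0.71 and r = -0.73 over 27 segments) and lower in segments of higher wild-type depth (rho = -0.53, r = -0.55). The log2 change is itself taken over wild-type depth, so the relation with wild-type depth is not one of independent values. Segments share reads and libraries, so these values describe 1 gene in 6 libraries.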
